A study of Mus musculus with 8 samples.

Results

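Small leucine-rich proteoglycans are secreted matrix proteins built around leucine-rich repeats, and 10 of their genes were followed in retinal pigment epithelium (RPE) eyecups of mice at postnatal day 11 (P11). The 10 genes were Dcn, Bgn, Aspn, Lum, Fmod, Kera, Prelp, Omd, Ogn and Podn. They were found by symbol among the 31053 gene identifiers of the count files, and all 10 were present. The study compared Bbs8-/- mice with wild-type littermates (Bbs8+/+), in 4 libraries each, all of strain C57/Bl6 and all untreated, by QuantSeq 3′ mRNA sequencing. Bbs8, listed in the annotation as Ttc8, encodes a subunit of the BBSome, a complex that moves proteins into and out of cilia. For these preparations the muscle and fat around the eye, the cornea, the lens, the retina and the optic nerve were taken off, so that the RPE was homogenized together with what lies behind it, the choroid and the sclera. Neither the sex of the animals nor the construction of the knockout allele was given in the labels.

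These proteoglycans bind collagen fibrils and set how thick the fibrils become and how evenly they are spaced. Many also carry sugar chains, chondroitin or dermatan sulfate in class I and keratan sulfate in class II, and several bind growth factors such as those of the transforming growth factor beta family. In the eye they are best known from the sclera and the cornea, both made of dense collagen, and they are made mainly by fibroblasts rather than by epithelium. An eyecup is a mixture of tissues, and in such bulk RNA a change in the number of cells of a type and a change in RNA per cell cannot be told apart.

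Several of the genes sit next to each other in the genome. Positions are those of mm10 (GRCm38), 1-based. On chromosome 10, Dcn (97479609 to 97518143), Lum (97565128 to 97572703) and Kera (97606879 to 97613692) follow each other on the plus strand at distances of 47.0 and 34.2 kb, and the related gene Epyc lies 30.4 kb further on. A second row is found on the plus strand of chromosome 13, where Aspn (49544443 to 49567565), Omd (49582462 to 49592822) and Ogn (49608046 to 49624501) are spaced by 14.9 and 15.2 kb. Prelp (minus strand, 133910304 to 133921414) and Fmod (plus strand, 134037254 to 134048277) lie 115.8 kb apart on chromosome 1. Podn is on the minus strand of chromosome 4 (108014791 to 108096445) and Bgn on the plus strand of the X chromosome (73483602 to 73495933). The chromosome 13 genes lie within Cenpp, which is transcribed from the opposite strand. The exons of Omd and Ogn share no base with those of Cenpp, those of Aspn share 7, and none of these fall in the last 500 exonic bases, where 3′ reads collect. The exons of Prelp share 350 bases with the antisense gene Gm15851, none of them in the last 500 exonic bases of Prelp. Podn overlaps Scp2 on the same strand with no exonic base in common.

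The last 30 bases of the transcript are shown for the gene that passed the test, Bgn, and for Dcn and Lum as relatives that did not. QuantSeq reads begin near the poly-A tail, so counts are taken to come from near such ends. The positions of the reads were not examined. Sequences were read 5′ to 3′ from the mm10 genome with GENCODE M21 transcript ends, at chrX:73495904-73495933, chr10:97518114-97518143 and chr10:97572674-97572703, all on the plus strand and all at the end of the 3′ UTR. Capitals mark the polyadenylation signal, AATAAA or its common variant ATTAAA.
Bgn: gtctctcaATTAAAgaaacactgtgcaata
Dcn: tcactgtcatattgaaaaaAATAAAatttt
Lum: ttgatagcaaAATAAAacaatgaagctggc
The signal started 22, 11 and 20 bases from the transcript end in Bgn, Dcn and Lum, respectively. Neither form of the signal was found in the last 30 bases of Fmod, Prelp, Omd and Podn.

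Upstream sequence is shown for Bgn and for Omd, the members with the smallest p in the upward and the downward direction. Both windows are the 250 bases before the RefSeq gene start on GRCm38.p6, chrX:73483351-73483600 and chr13:49582212-49582461, plus strand, 5′ to 3′. Capitals mark matches to any of 4 motifs, each searched on both strands. For the TATA box the letters TATAAA were searched and for the GC box GGGCGG. The CCAAT box was searched by those letters, and the AP-1 site by the letters TGACTCA.
Bgn: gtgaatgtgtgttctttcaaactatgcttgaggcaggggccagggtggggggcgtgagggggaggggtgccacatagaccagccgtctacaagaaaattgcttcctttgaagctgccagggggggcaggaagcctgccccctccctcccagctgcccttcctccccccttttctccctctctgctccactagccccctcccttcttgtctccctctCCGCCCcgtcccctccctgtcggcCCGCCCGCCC
Omd: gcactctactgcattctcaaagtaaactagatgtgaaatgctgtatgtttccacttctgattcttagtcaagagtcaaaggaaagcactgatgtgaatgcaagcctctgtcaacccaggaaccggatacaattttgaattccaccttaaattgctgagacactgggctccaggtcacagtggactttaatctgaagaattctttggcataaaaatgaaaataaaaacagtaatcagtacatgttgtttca
The Bgn window had a GC content of 64.4% and held 3 GC box matches (written CCGCCC on this strand), of which 2 overlap, and no match to the other motifs. The Omd window had a GC content of 38.4% and held none of the 4 motifs. Among 32851 RefSeq windows of the same length, 32.7% held a GC box, 12.4% a TATA box, 33.8% a CCAAT box and 4.46% an AP-1 site. RefSeq entries were found for 8 of the 10 genes.

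Libraries held 1636725 to 2884983 reads in genes, so that 3 counts, taken here as the floor of detection, corresponded to 1.04 to 1.83 CPM, which are read counts scaled to a fixed library total. The targeted gene Ttc8 was at 14.6, 19.7, 18.2 and 21.6 CPM in Bbs8+/+ and at 9.70, 3.65, 2.29 and 4.20 CPM in Bbs8-/-, without overlap (log2 fold change -1.95, SE 0.317, edgeR FDR 2.74e-06). Across all 13813 genes tested, 2.24% passed an FDR of 0.05, 1.10% in the upward and 1.14% in the downward direction. Over all genes the log2 fold changes had a median of -0.00407. No library was a copy of another.

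All 10 proteoglycan genes passed the filter on low counts and were tested. Bgn rose in Bbs8-/-, and 0 fell (edgeR quasi-likelihood test, FDR 0.05), against a background of 1.10% of all tested genes called higher and 1.14% called lower. DESeq2 gave the same counts, 1 higher and 0 lower. An unadjusted p under 0.05 was reached by 3 genes with higher levels in Bbs8-/- (Bgn, Dcn and Podn) and by 1 with a lower level (Omd), where 13.0% of all tested genes reached that p in either direction. Libraries of the genotypes did not overlap in Bgn and Dcn, and 7.38% of all tested genes were free of overlap. The log2 fold changes were above 0 in 5 genes and below 0 in 5, with a median of -0.00586. Levels are TMM-normalized CPM and are given in the order of the replicate numbers. Since reads come from the 3′ end of each transcript, counts were not divided by transcript length.

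**Figure D1:**
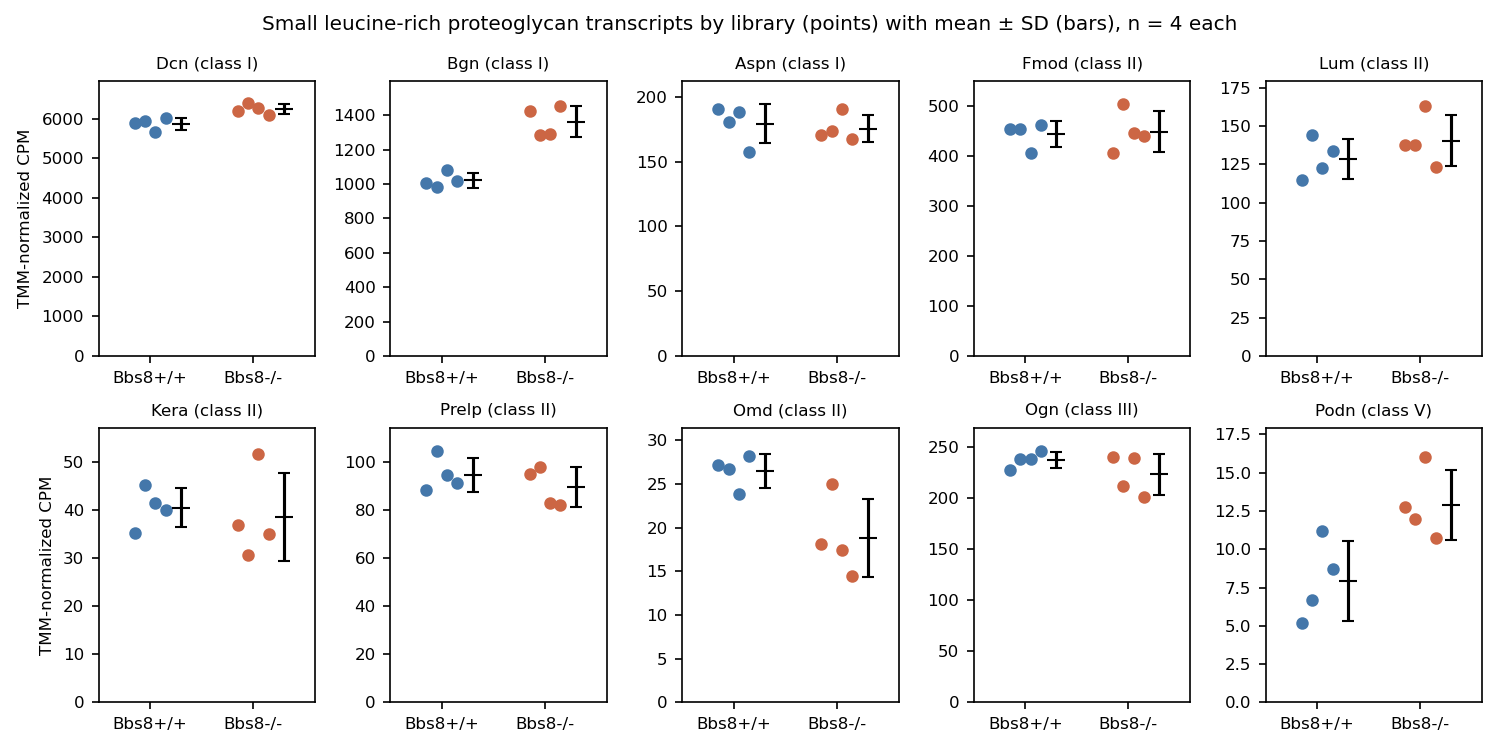
Level of each of the 10 small leucine-rich proteoglycan transcripts in TMM-normalized CPM (vertical axes start at 0 and differ between panels). Points are single libraries, bars are mean ± SD with n = 4 per genotype; in Bgn the Bbs8-/- libraries (1284 to 1455 CPM) all sit above the Bbs8+/+ libraries (984.1 to 1083 CPM), whereas 8 of the 10 genes overlap.

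Class I holds decorin, biglycan and asporin. Biglycan (Bgn, ENSMUSG00000031375), which carries a pair of chondroitin or dermatan sulfate chains and is known as a signal for Toll-like receptors when set free, was the gene that passed. It was at 1007, 984.1, 1083 and 1017 CPM in Bbs8+/+ and at 1425, 1284, 1293 and 1455 CPM in Bbs8-/-. Each Bbs8-/- library was above the highest Bbs8+/+ library, and this also held with RLE size factors, with library totals only and with scaling to fibroblast genes. The means were 1023 ± 42.6 and 1364 ± 88.7 CPM (SD, n = 4 each). The log2 fold change was 0.42 (SE 0.0483, 95% interval 0.32 to 0.511, edgeR FDR 1.27e-11), or 1.33-fold. By p-value Bgn was number 20 of the 13813 genes. Between 2320 and 3117 reads per library stood behind these levels.

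Bgn is X-linked, and the levels of Xist and of summed Y-linked genes did not overlap between the genotypes. Xist, the RNA that coats the inactive X chromosome, ranged from 640.5 to 746.2 CPM in Bbs8+/+ and from 570.0 to 624.6 CPM in Bbs8-/-. Summed Y-linked genes ranged from 58.98 to 64.91 CPM and from 108.1 to 119.5 CPM, respectively. Xist and Y-linked reads were both found in each of the 8 libraries. The labels give each library as a separate biological replicate and do not say whether RNA of several animals was pooled in it, so n here counts libraries. Every SE, interval and FDR given here therefore describes spread between libraries and may not describe spread between animals. The part of sex-linked differences in the Bgn result was not tested.

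Decorin (Dcn, ENSMUSG00000019929), the namesake of decorated collagen fibrils and a binder of transforming growth factor beta, had the most reads of the 10 genes. Its level was 5906, 5949, 5668 and 6013 CPM in Bbs8+/+ and 6208, 6398, 6286 and 6110 CPM in Bbs8-/-. The groups did not overlap, although they did when counts were scaled by library totals alone. From 5884 ± 151 to 6250 ± 122 CPM the log2 difference was 0.09 (SE 0.0326, interval 0.0225 to 0.152), and it did not pass (edgeR FDR 0.174). The interval of Dcn ends below the interval of Bgn.

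Asporin (Aspn, ENSMUSG00000021388), which has a run of aspartate residues in place of a sugar chain, was at 190.4, 180.5, 188.7 and 157.8 CPM in Bbs8+/+ and at 170.4, 173.9, 190.3 and 167.2 CPM in Bbs8-/-. The groups overlapped almost fully. Its log2 fold change was -0.03 with an interval from -0.191 to 0.137 (edgeR FDR 0.938).

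Class II comprises lumican and keratocan, which keep corneal fibrils apart, fibromodulin of tendon and sclera, prolargin and osteomodulin. Fibromodulin (Fmod, ENSMUSG00000041559) directs collagen cross-linking and had the most reads of this class. Its level was 452.8, 453.3, 405.8 and 461.8 CPM in Bbs8+/+ and 405.7, 502.8, 445.3 and 439.4 CPM in Bbs8-/-. Both the highest and the lowest library belonged to Bbs8-/-. The log2 fold change was 0.02 (interval -0.107 to 0.138, edgeR FDR 0.954).

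Lumican (Lum, ENSMUSG00000036446) was at 114.6, 144.3, 122.4 and 133.3 CPM in Bbs8+/+ and at 137.7, 137.3, 163.3 and 123.3 CPM in Bbs8-/-. The highest library was Bbs8-/- and the lowest Bbs8+/+, with the others mixed. Means of 128.6 ± 13.0 and 140.4 ± 16.7 CPM gave a log2 fold change of 0.12 (interval -0.0605 to 0.309, edgeR FDR 0.631). Keratocan (Kera, ENSMUSG00000019932), the member most tied to the corneal stroma, was at 35.3, 45.2, 41.6 and 40.1 CPM in Bbs8+/+ and at 37.0, 30.8, 51.8 and 35.0 CPM in Bbs8-/-. Replicate 3 of Bbs8-/- was the highest of all and replicate 2 the lowest. The log2 fold change was -0.06 (interval -0.381 to 0.255, edgeR FDR 0.924).

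Prolargin (Prelp, ENSMUSG00000041577), which links basement membrane to the collagen beneath it, was at 88.3, 104.6, 94.8 and 91.4 CPM in Bbs8+/+ and at 95.2, 98.2, 83.0 and 82.2 CPM in Bbs8-/-. The groups overlapped, with replicates 3 and 4 of Bbs8-/- below all others. Its log2 fold change was -0.09 (interval -0.299 to 0.128, edgeR FDR 0.817).

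Osteomodulin (Omd, ENSMUSG00000048368), a keratan sulfate proteoglycan first known from bone, had the lowest level relative to the controls. It was at 27.1, 26.7, 23.8 and 28.3 CPM in Bbs8+/+ and at 18.2, 25.1, 17.4 and 14.5 CPM in Bbs8-/-. Replicate 2 of Bbs8-/- lay within the Bbs8+/+ range and the other 3 below it. The log2 fold change from 26.5 ± 1.90 to 18.8 ± 4.48 CPM was -0.50 (SE 0.209, interval -0.917 to -0.0907) and did not pass the test (edgeR FDR 0.246). These levels rested on 51 to 81 reads per library in Bbs8+/+ and 30 to 48 in Bbs8-/-.

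Osteoglycin (Ogn, ENSMUSG00000021390) of class III, also called mimecan, is found in the corneal stroma and in bone. Its level was 227.5, 238.7, 238.6 and 246.8 CPM in Bbs8+/+ and 240.8, 212.0, 239.8 and 201.2 CPM in Bbs8-/-. A pair of the Bbs8-/- libraries lay within the Bbs8+/+ range and the other pair below it. The log2 fold change was -0.09 (interval -0.241 to 0.0557, edgeR FDR 0.665).

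Podocan (Podn, ENSMUSG00000028600), of class V and first described in kidney podocytes, had the fewest reads. It was at 5.17, 6.68, 11.2 and 8.73 CPM in Bbs8+/+ and at 12.7, 12, 16.1 and 10.7 CPM in Bbs8-/-. All but replicate 4 of Bbs8-/- were above the highest Bbs8+/+ library. With 12 to 25 reads per library in Bbs8+/+ and 21 to 35 in Bbs8-/-, the log2 fold change of 0.70 had the widest interval (0.094 to 1.31, SE 0.307) and did not pass (edgeR FDR 0.285).

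**Figure D2:**
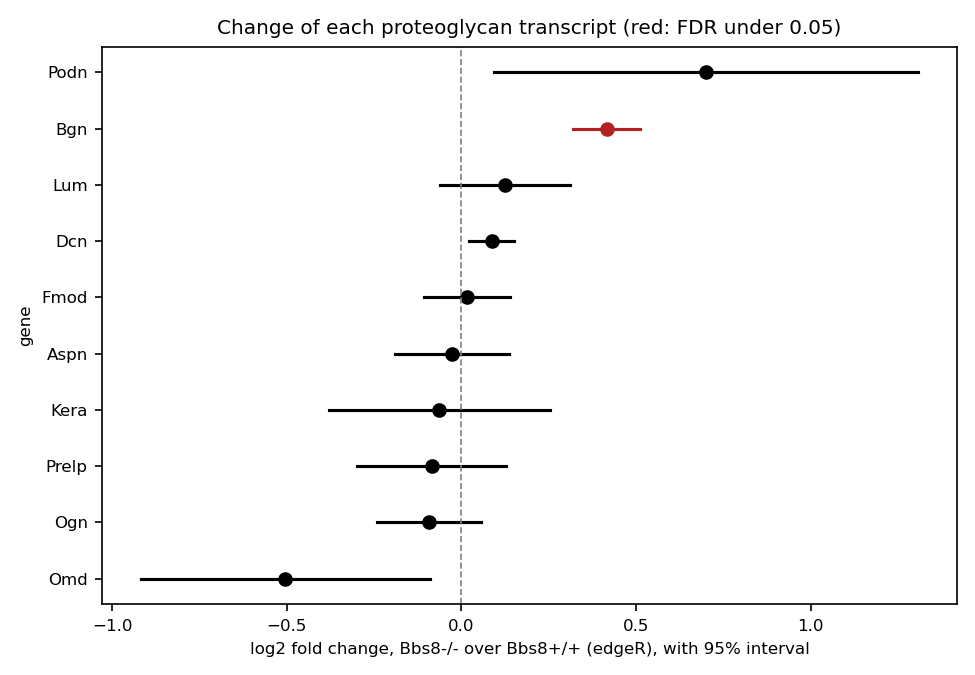
Log2 fold change of each proteoglycan transcript, Bbs8-/- over Bbs8+/+, from the edgeR fit across all genes (points) with its 95% interval (lines); red marks an FDR under 0.05. Bgn is the red point at 0.42, and the intervals of Podn and Omd, the genes with the fewest reads, are the widest.

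Added up, the 10 transcripts were at 8054, 8133, 7878 and 8198 CPM in Bbs8+/+ and at 8751, 8874, 8785 and 8639 CPM in Bbs8-/-. Every Bbs8-/- sum was above every Bbs8+/+ sum, and the means of 8066 ± 138 and 8762 ± 97.0 CPM had a ratio of 1.09. The sum is a description with no test, since most of it comes from Dcn. Without Dcn the means were 2182 ± 25.4 and 2512 ± 30.0 CPM, a ratio of 1.15. Without Dcn and Bgn the other 8 genes summed to 1159 ± 32.2 and 1148 ± 62.9 CPM, with overlap and a ratio of 0.99.

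Shares within the sum shifted towards Bgn. Decorin made up 72.9 ± 0.671% of the sum in Bbs8+/+ and 71.3 ± 0.62% in Bbs8-/-, with overlap. The Bgn share was 12.7 ± 0.728% in Bbs8+/+ and 15.6 ± 1.17% in Bbs8-/-, and it did not overlap. Shares of Ogn (2.95% and 2.55%) and of Omd (0.328% and 0.214%) were lower in each Bbs8-/- library than in any Bbs8+/+ library, while those of the remaining genes overlapped. Shares add up to a fixed total, so a larger Bgn share lowers the others, and the levels of Ogn and Omd themselves overlapped between the genotypes.

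Ratios taken within a library do not depend on how libraries are scaled. A set of 3 such ratios was chosen after the values had been seen, to set Bgn and Dcn against each other and against the fibril-forming collagen I that they coat. There were 0.171, 0.165, 0.191 and 0.169 Bgn reads per Dcn read in Bbs8+/+ and 0.230, 0.201, 0.206 and 0.238 in Bbs8-/-. No Bbs8+/+ library reached a Bbs8-/- library, and the log2 difference was 0.33 or 1.25-fold. The ratios are descriptions with no test, since the changes of Bgn and of collagen I had been seen when they were chosen.

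Relative to Col1a1 and Col1a2 together, Bgn and Dcn were both higher in Bbs8-/-. Bgn reads per collagen I read were 0.0382 ± 0.00215 in Bbs8+/+ and 0.0717 ± 0.00426 in Bbs8-/-, or 1.88-fold. For Dcn the ratios were 0.220 ± 0.00276 and 0.329 ± 0.0140 (SD, n = 4 each), or 1.5-fold. Both terms enter these ratios, and collagen I itself fell, so that a gene with a steady level would also have a higher ratio in Bbs8-/-.

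**Figure D3:**
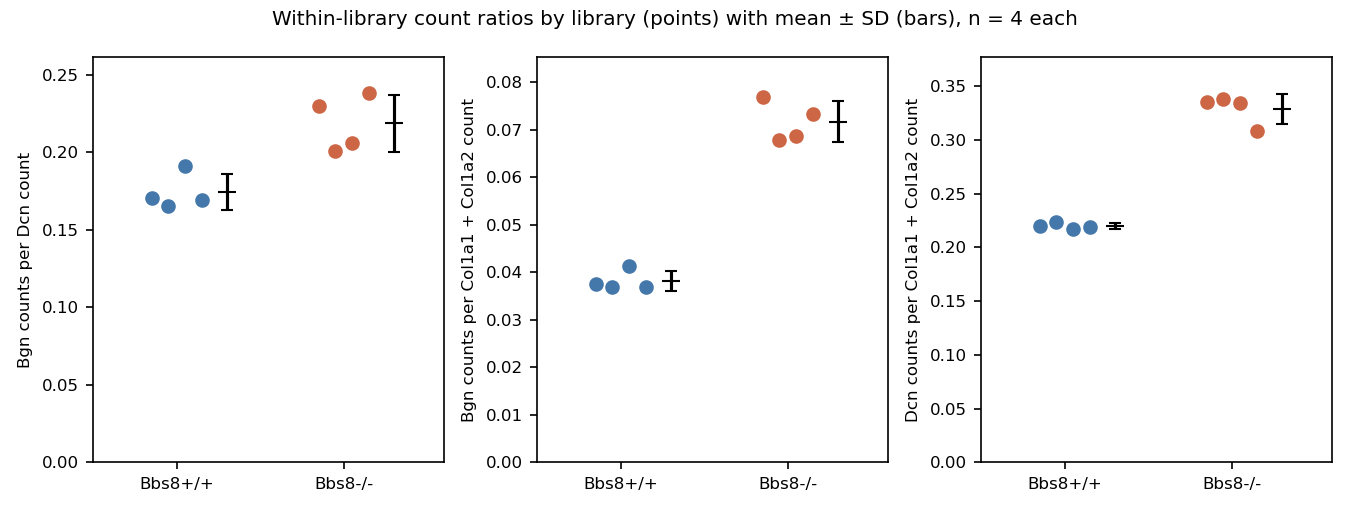
Reads of Bgn per read of Dcn (left), and reads of Bgn (middle) and Dcn (right) per read of Col1a1 plus Col1a2, in each library (points) with mean ± SD (bars, n = 4 per genotype, axes from 0). In each panel the Bbs8-/- libraries all lie above the Bbs8+/+ libraries.

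Among the collagens that small leucine-rich proteoglycans bind, 11 genes were tested, 5 fell and 0 rose by edgeR, and DESeq2 called 5 lower and 0 higher. With an unadjusted p under 0.05, 8 were lower and 0 higher. Of all tested genes, 1.14% were called lower by edgeR and 13.0% reached that p in either direction. The median log2 fold change of the 11 was -0.21. Col1a1, a chain of collagen I, fell from 11700 ± 133 to 8737 ± 326 CPM (-0.42 on the log2 scale, edgeR FDR 1.96e-25). Col1a2, the other chain, fell from 15100 ± 683 to 10290 ± 269 CPM (-0.55, FDR 1.55e-36). Col3a1 of collagen III fell by 0.21 on the log2 scale, and the minor fibril component Col5a1 and the beaded-filament chain Col6a3 fell by 0.35 and 0.28 (edgeR FDR 0.00017, 0.014 and 0.00561). The call of Col5a1 was lost without Bbs8+/+ replicate 1 (FDR 0.102), Bbs8-/- replicate 2 (0.0601) or Bbs8-/- replicate 3 (0.137), and that of Col6a3 without Bbs8+/+ replicate 4, where its log2 fold change was -0.18 (FDR 0.228). Neither Col12a1 (-0.05) nor Col14a1 (-0.13), which sit on fibril surfaces as the proteoglycans do, passed.

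Among other genes of the proteoglycan family outside the 10, 6 of 7 were tested, 1 rose and 0 fell. With an unadjusted p under 0.05, 2 were higher and 0 lower, and DESeq2 called 1 and 0. Chad, which encodes chondroadherin, a cell-binding protein of cartilage, rose from 152.6 ± 10.5 to 195.0 ± 9.26 CPM without overlap (log2 fold change 0.36, SE 0.083, edgeR FDR 0.00337). Of their neighbours in the genome, Epyc beside Kera was at 0.01 (SE 0.23) and Ecm2 beside Aspn at -0.05 (SE 0.109), and Optc, 2.3 kb from Prelp, was at 0.13 (SE 1.02) on at most 5 reads per library. None of these passed. Tsku, an inhibitor of growth factor signals, was at 3.24 ± 0.949 and 6.78 ± 2.91 CPM and did not pass (FDR 0.31).

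None of the enzymes that build the sugar chains passed the edgeR test. For the linkage by which a chain is attached, 0 of 6 genes were called and 0 had an unadjusted p under 0.05, and the genes with the most reads, the kinase Fam20b and the chain-starting xylosyltransferase Xylt1, had log2 fold changes of 0.02 and -0.45. For chondroitin and dermatan sulfate 0 of 15 were called, the median was -0.17, and 2 were lower at an unadjusted p under 0.05 (Csgalnact2 at -0.43 and the sulfotransferase Chst11 at -0.51). The most read genes of that list, the polymerizing factor Chpf and the epimerase relative Dsel, were at 0.04 and 0.06.

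For keratan sulfate 0 of 7 genes were called, with 1 higher (Chst1) and 1 lower (Chst2) at an unadjusted p under 0.05, and the sialyltransferase St3gal1 and the galactosyltransferase B4galt1 were at -0.05 and 0.03. The genes that supply sulfate gave 0 calls of 7 and 0 at an unadjusted p under 0.05, with -0.07 for the phosphatase Impad1 and 0.11 for the sulfate donor synthase Papss1. DESeq2 called 0 genes in each of these 4 lists.

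Of 12 genes for proteolysis of these proteoglycans, namely proteases and Pcolce, an enhancer of procollagen processing, 9 were tested, 1 rose and 1 fell. Adamts5, an aggrecanase that also cleaves biglycan, rose from 30.3 ± 5.21 to 44.9 ± 1.13 CPM (0.58 on the log2 scale, edgeR FDR 0.0315). This call was lost after thinning to the smallest library and without any of Bbs8+/+ replicates 2 and 4 and Bbs8-/- replicates 1, 2, 3 and 4, with an FDR of up to 0.15. Mmp14, a membrane-bound metalloprotease, fell from 213 ± 17.2 to 166 ± 12.2 CPM (-0.36, FDR 0.0021), and its FDR was 0.052 without Bbs8+/+ replicate 2. Bmp1, the propeptide protease of Bgn and Dcn, was at -0.15 (FDR 0.754).

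Growth factors and receptors that bind these proteoglycans gave 0 calls of 15 tested by edgeR and by DESeq2, with 3 lower and 0 higher at an unadjusted p under 0.05 (Tgfb3, Tgfbr2 and Ccn2). The most read of them, the ligand Bmp4 and the receptor Igf1r, were at 0.04 and -0.05. The Toll-like receptors Tlr2 and Tlr4, receptors for free biglycan, had no more than 16 reads in any library. Together the 8 lists outside the 10 genes held 76 tested genes, of which 2 rose and 6 fell by edgeR, with a median of -0.07 beside -0.00407 for all genes. Of all tested genes 1.10% rose and 1.14% fell by edgeR.

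**Figure D4:**
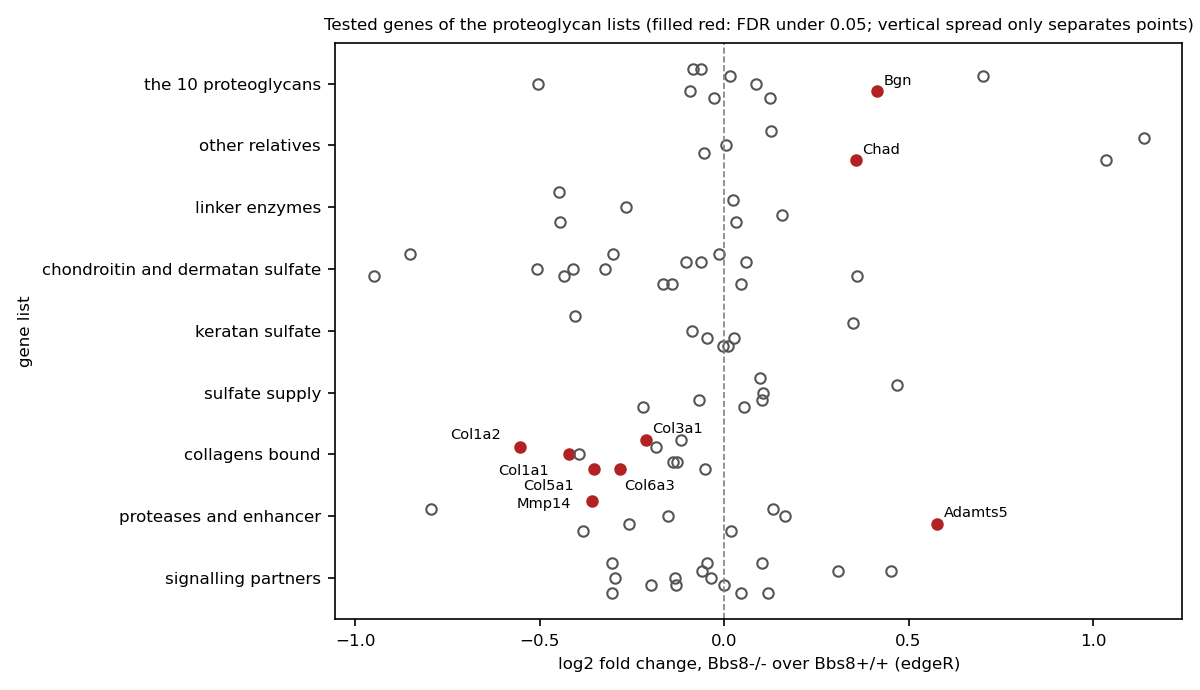
Log2 fold change, Bbs8-/- over Bbs8+/+ (edgeR), of the tested genes of the 10 proteoglycans and of 8 related gene lists; filled red points, named, have an FDR under 0.05 and the vertical spread within a row only separates points. The red points of the collagen row all lie below 0, while Bgn, Chad and Adamts5 lie above it.

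Markers of the cells that could supply these transcripts were read from the same fit. Of 20 fibroblast markers, all tested, 1 rose (Pi16, from 53.4 ± 4.12 to 83.2 ± 14.8 CPM) and 4 fell (Col1a1, Col1a2, Col3a1 and Creb3l1), and the median log2 fold change was -0.05. At an unadjusted p under 0.05, 3 were higher (also Serpinf1 and Igfbp6) and 7 lower (also Pdgfra, Fbn1 and Fap). Of all tested genes 13.0% reached that p in either direction. Leaving out the 3 collagens, the other 17 summed to between 2298 and 2446 CPM in Bbs8+/+ and between 2274 and 2391 CPM in Bbs8-/-. These 17 include the called genes Pi16 and Creb3l1, so an even sum does not mean that each marker was even. With libraries scaled to those 17 genes, an alternative added after the values were seen, the log2 fold change of Bgn was 0.44 (edgeR FDR 3.76e-10).

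Corneal epithelium and lens markers differed between the genotypes. Summed corneal epithelium markers ranged from 14.94 to 20.55 CPM in Bbs8+/+ and from 0 to 0.6065 CPM in Bbs8-/-. The 3 of 7 that were tested (Krt15, Krt13 and Krt6a) passed the filter on low counts through their Bbs8+/+ libraries alone, so their direction was set by the filter, while Krt14 had no reads and Krt12 had none in 7 of the 8 libraries. Of the 5 corneal stroma markers 3 were tested and 0 passed by edgeR or DESeq2, and Aldh3a1, which was 1 lower gene at an unadjusted p under 0.05, was at 43.0 ± 3.42 and 30.4 ± 4.69 CPM (log2 fold change -0.51, FDR 0.0805). Their sum, mostly Ptgds, ranged from 5780 to 6136 CPM and from 5850 to 6194 CPM. Kera and Lum, the members known from that layer, are given above. Summed lens markers ranged from 40.5 to 56.87 CPM in Bbs8+/+ and from 299.4 to 330.5 CPM in Bbs8-/-, with 4 of 8 higher (Cryaa, Cryba1, Crygb and Crygc). The part of these tissues in the proteoglycan results was not tested.

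Tendon markers (4 of 5 tested, 0 called by edgeR or DESeq2, 1 higher, Tnmd, at an unadjusted p under 0.05) summed to 524.9 to 606.7 CPM in Bbs8+/+ and 574.3 to 661 CPM in Bbs8-/-. Cartilage and bone markers (4 of 8 tested, 0 called by either tool, 1 higher, Col2a1, at an unadjusted p under 0.05) summed to 72.35 to 83.77 CPM and 72.05 to 91.98 CPM, and Matn1 had no reads. Skeletal muscle markers (2 of 8 higher, Myh8 and Tnnc2) ranged from 1549 to 1725 CPM and from 1714 to 1913 CPM. The sums of all 3 lists overlapped between the genotypes.

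Further lists covered pigment cells and vessels. The sum of 8 RPE markers ranged from 15920 to 16970 CPM in Bbs8+/+ and from 17020 to 17270 CPM in Bbs8-/- (1 fell, Mlana, and 0 rose by edgeR, with 2 higher, Rlbp1 and Ttr, and 2 lower, Rpe65 and Mlana, at an unadjusted p under 0.05), so the labelled tissue was present in each library. Most of this sum was Ttr, at 10940 ± 513 and 11660 ± 61.6 CPM (edgeR FDR 0.0686). Melanocyte markers (5 of 8 lower, Dct, Tyrp1, Pmel, Mitf and Ednrb) ranged from 13950 to 14600 CPM and from 11580 to 12150 CPM. Most of this sum was Dct, at 10360 ± 126 and 8721 ± 173 CPM. The rest of the list did not pass, with log2 fold changes of 0.02 for Tyr, -0.03 for Kit and -0.05 for Sox10 (edgeR FDR 0.955, 0.974 and 0.878). Pericyte and smooth muscle markers (1 of 8 lower, Rgs5) ranged from 1283 to 1325 CPM and from 1135 to 1210 CPM. At an unadjusted p under 0.05, 3 of them were lower (Rgs5, Pdgfrb and Cspg4) and 1 higher (Des). Rgs5 had the most reads of this list and was at 714.2 ± 27.2 and 598.1 ± 19.9 CPM. Endothelial markers (0 of 8 called by either tool, 1 lower, Cdh5, at an unadjusted p under 0.05) ranged from 709.8 to 756.1 CPM and from 697.6 to 777.9 CPM. Their part in the Bgn result was not tested.

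Within a genotype the 10 genes did not move as a block. Over 45 pairs, the correlation of log2(CPM + 1) centred within each genotype ranged from -0.837 to 0.803 over the 8 libraries, with a median of 0.0681 and 25 pairs above 0. The highest values were those of Dcn with Fmod (0.803) and Lum with Kera (0.794), and the lowest that of Dcn with Bgn (-0.837). Correlations of Bgn were below 0 with all of the others except Podn (0.134). The 7 pairs on a shared chromosome had a median of 0.0705 and the other pairs one of 0.0347. These are descriptions over libraries that share depth and normalization.

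Outside the family, the genes whose centred profile was most like the mean profile of the 9 members with at least 20 CPM were Epas1 (Pearson r 0.983), Ptp4a3 (0.963), Myl12a (0.96), Gnb5 (0.951), Ubqln1 (0.944), Smarcb1 (0.941), Pde6b (0.929) and Kdm4a (0.926), the highest 8 of 6617 candidates over 8 libraries. The mean profile itself ranged from -0.102 to 0.0704 on the log2 scale, which is a narrow range to match. Of these 8 genes, Epas1 passed the edgeR test of genotype (log2 fold change -0.27, FDR 0.0441) and the other 7 did not. The call of Epas1 was lost with DESeq2 (FDR 0.0981), with a replicate block (0.0606), after thinning (0.081), with fibroblast scaling (0.12) and without any of Bbs8+/+ replicates 2, 3 and 4 and Bbs8-/- replicates 1 and 4 (up to 0.313).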

How the data were processed

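RNA of P11 eyecups (30 ng per library) was sequenced with the QuantSeq 3′ kit. The authors trimmed the reads with BBDuk, aligned them to mm10 with STAR and assigned them to Ensembl genes with htseq-count. The deposited values are raw counts of uniquely aligned reads, 1 file per library. Whether strand was used in the counting is not given in the sources used here, so antisense overlaps are uncertain. Counter summary lines were left out of library sizes, and reads outside annotated genes made up 42.15% to 44.39% of a library. No molecular identifiers were named, so floors cover counting error only.

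Of 31053 identifiers, 30934 matched GENCODE M21 (GRCm38), which gave symbols and positions. Promoter windows came from RefSeq (GRCm38.p6). Genes that reached 1 CPM in 4 or more libraries entered the edgeR 4.0.16 quasi-likelihood F test in R 4.3.3 (TMM, genotype as the only factor, two-sided, Benjamini-Hochberg over all tested genes, FDR 0.05). The SE was the size of the log2 fold change divided by the square root of F. Each animal counts as a biological replicate in the study's methods. Since Xist and Y-linked reads occurred together in each library, n is given here as libraries and not as animals. Alternatives included DESeq2 1.42.0.

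The 10 genes, the gene lists and the tests were chosen with earlier results of these data known. Named in the text are all 10 genes, Ttc8, each list's genes past the FDR or otherwise its 2 most abundant ones, and the 8 most similar profiles. Tsku, Epyc, Optc, Pcolce, Ecm2, Csgalnact2, Chst11, Chst1, Chst2, Col12a1, Col14a1, Bmp1, Tgfb3, Tgfbr2, Ccn2, Tlr2, Tlr4 and the marker genes were named in addition, after their values were seen. Replicate numbers in the titles did not pair the libraries: deviations of libraries with the same number correlated at -0.056 to 0.0196 over 6626 genes. Some marker lists are not reported here.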

Additional observations from a re-analysis of the deposited data

Results flagged for a closer look

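In 6 of 72 groups of 4 libraries examined, a single library stood apart from the others by Dixon's criterion, where chance gives about 3.6. Fmod was at 405.8 CPM in Bbs8+/+ replicate 3 and between 452.8 and 461.8 CPM in the other Bbs8+/+ libraries. The same library had the highest log2 ratio of Bgn to collagen I (-4.594, others -4.759 to -4.736), the highest sum of corneal epithelium markers (20.55 CPM, others 14.94 to 15.71) and the lowest sum of tendon markers (524.9 CPM, others 596.3 to 606.7). In Bbs8-/- the log2 ratio of Dcn to collagen I was -1.7 in replicate 4 and between -1.581 and -1.566 in the others, and Mmp14 was at 184.3 CPM in replicate 2 and between 158.3 and 161.4 CPM in the others.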

How the results depend on the processing

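The counts of calls and the log2 fold changes of the 10 genes and of 12 other genes named were recomputed under 16 other settings (other scalings, filters and tools, thinning to the smallest library, a replicate block, and leaving out each library or the dominant transcripts) and under 1 chosen after seeing the data (scaling to fibroblast markers). Over these 17, Bgn kept its direction and passed the FDR each time (log2 fold change 0.383 to 0.446, FDR 6.87e-14 to 2.27e-08), and the counts of proteoglycan genes stayed at 1 higher and 0 lower. The FDR stayed above the threshold for Dcn (0.123 to 0.354), Omd (0.126 to 0.536) and Podn (0.169 to 0.551). Chad, Col1a1, Col1a2, Col3a1, Pi16 and Creb3l1 also kept their calls, and those lost by Col5a1, Col6a3, Adamts5, Mmp14 and Epas1 are given with their values above. The summed level had 14 alternatives, and shares, ratios, correlations and the sums of marker lists were computed in the main setting only. The sign of genes near 0 turned in a few fits: Aspn was at 0.00665 without Bbs8+/+ replicate 1 and at 0.000311 after thinning, Fmod at -0.0231 without Bbs8+/+ replicate 3, at -0.0403 without Bbs8-/- replicate 2 and at -0.00767 after thinning, and Kera at 0.035 without Bbs8-/- replicate 2. With 1 library left out, Aspn ranged from -0.0845 to 0.00665, Fmod from -0.0403 to 0.0643 and Kera from -0.244 to 0.035. Lum (0.042 to 0.187), Prelp (-0.13 to -0.0305) and Ogn (-0.128 to -0.0437) moved by over 1.5 times without a change of sign or call. The cause was not tested. Over the same fits, lower genes over the whole table numbered 101 to 150 instead of 157, with 101 without Bbs8-/- replicate 1. The ratio of the summed level, 1.09, was 1.10 with fibroblast scaling and 1.15 without Dcn. The median of all genes lay between -0.0131 and 0.021 over all settings.

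With the replicate number as a block, Bgn was at 0.414 (FDR 1.04e-09) and the counts were again 1 and 0; 1 of the 8 libraries correlated best with its own number. Among the genes listed here the block ended the call of Epas1. Podn and Omd rested on 12 to 81 reads per library.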
